A study of Mus musculus with 46 samples.

Results

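Interferon-stimulated genes are genes whose transcription rises when a cell receives an interferon signal. Here 39 of them were followed through tumors of 8 mouse mammary cancer models and through normal mammary glands. The list was taken by symbol and covers RNA sensors, transcription factors, antiviral effectors, feedback genes, interferon-inducible GTPases and genes of antigen processing. Of the 39 genes, 36 had at least 1 probe set on the array table and all 36 passed the filter on low values, among 9329 genes that passed of 10470 with a probe set. Ddx58, Ifi44 and Xaf1 had no probe set in the table and have no values here. Several probe sets stood for 11 of the genes, and then the brightest on average over the 46 arrays was used.

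The arrays held RNA from 41 primary tumors of individual female mice and from 5 normal glands. The basal-type models were C3(1)/Tag (5 tumors, FVB strain), in which a prostate steroid binding protein promoter active in mammary ductal cells drives simian virus T antigens, the p53-/- transplant model (7 tumors, Balb/C strain, p53fl/fl;MMTV-cre), and BRCA1-/-p53+/- (5 tumors, 129B6/FVB strain, BRCA1fl/fl;p53+/-;MMTV-cre). The luminal-type models were all FVB and carried an oncogene under the MMTV promoter, which is active in mammary epithelium and also at other sites such as lymphoid cells: MMTV-PymT (6 tumors), MMTV-H-Ras (5), MMTV-Wnt1 (4), MMTV-Her2/neu (5) and MMTV-c-Myc (4). The normal glands came from pregnant FVB females. Strain and model therefore cannot be told apart for the p53-/- transplant and BRCA1-/-p53+/- tumors, and neither of these strains had a normal gland. The transplant tumors grew in a host gland, whose cells were part of the sampled tissue. Pieces of whole tissue were measured, so that fewer cells of a type and less RNA per cell cannot be told apart.

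Type I interferons bind a receptor on nearly all cells, and its kinases activate a complex of STAT proteins with Irf9 that binds an interferon-stimulated response element, or ISRE. Interferon gamma, made mainly by T and NK cells, acts through a STAT dimer that binds a gamma-activated site, or GAS. In mammary tumors these genes can be transcribed by the tumor epithelium as well as by macrophages and other cells of the stroma.

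The promoter sequences below are shown because they carry the letters these complexes are known to bind, in genes whose levels are described later. RefSeq windows on the GRCm38.p6 build, from 250 bases before to 50 bases after the start, were held for 31 of the 39 genes, in 36 windows. The letters of an ISRE, taken as GAAA, any 2 bases and GAAA again on either strand, stood in 14 of the 36 windows (38.9%), against 3.44% of all 32851 windows. The letters TTCNNNGAA of a GAS, which are their own reverse complement, stood in 8 of the 36 windows (22.2%), against 8.3% of all windows. Capitals mark the matches, with up to 18 bases on either side, and the letters are those of the reference strain, not of FVB, Balb/C or 129B6/FVB. A match is a description of letters and no occupied site was measured.

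ISRE letters in antiviral effectors:
Ifit1, chr19:34640767-34640831, plus strand: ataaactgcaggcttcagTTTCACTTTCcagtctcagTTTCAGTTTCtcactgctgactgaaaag
Ifit3, chr19:34583355-34583434, plus strand: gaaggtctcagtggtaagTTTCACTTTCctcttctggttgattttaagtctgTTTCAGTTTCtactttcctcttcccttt
Rsad2, chr12:26456545-26456590, minus strand: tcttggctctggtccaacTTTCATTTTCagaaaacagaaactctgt
Oas3, chr5:120777707-120777752, minus strand: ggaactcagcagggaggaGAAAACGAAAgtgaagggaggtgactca
Oas1a, chr5:120907526-120907563, minus strand: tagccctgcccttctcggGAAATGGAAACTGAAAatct
Bst2, chr8:71537569-71537620, minus strand: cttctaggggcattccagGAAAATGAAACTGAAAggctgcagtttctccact

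ISRE letters in GTPases:
Gbp2b, chr3:142594692-142594737, plus strand: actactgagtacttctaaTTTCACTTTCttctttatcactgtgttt
Gbp2, chr3:142620586-142620631, plus strand: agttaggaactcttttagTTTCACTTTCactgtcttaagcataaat
Gbp3, chr3:142559981-142560032, plus strand: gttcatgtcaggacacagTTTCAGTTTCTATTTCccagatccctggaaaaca
Irgm1, chr11:48871421-48871468, minus strand: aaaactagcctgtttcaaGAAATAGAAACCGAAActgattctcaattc

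GAS letters in transcription factors and an immunoproteasome subunit:
Irf1, chr11:53769906-53769950, plus strand: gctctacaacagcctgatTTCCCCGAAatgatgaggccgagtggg
Irf8, chr8:120736169-120736231, plus strand: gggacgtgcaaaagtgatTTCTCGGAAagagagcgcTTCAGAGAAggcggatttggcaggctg
Psmb8, chr17:34198080-34198124, plus strand: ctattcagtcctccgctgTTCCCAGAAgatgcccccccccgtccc

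Ifit1, Ifit3 and Irf8 held 2 separate matches in the window shown. The windows of Gbp2b, Gbp2 and Gbp3 all lay on chromosome 3, and each of the 3 held ISRE letters, although the levels of these 3 genes followed different patterns across the groups, as given below.

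Values were log2 and had been normalized across arrays by the authors. They ran from 1.7 to 15.98, and the medians of single arrays lay between 6.48 and 7.48, with MMTV-H-Ras array 1 the lowest. All 10 markers of luminal epithelium passed the filter, with a log2 summed level of 13.95 to 16.67 in 8 of the 9 groups and of 10.83 to 15.81 in the BRCA1-/-p53+/- tumors. Array numbers only name samples. The tumors came from separate mice. The p-values of comparisons of groups rest on the spread within groups, pooled over the 9 groups for each gene. That spread was unequal, with an SD of Ifit1 of 0.11 in normal glands and 4.52 in MMTV-H-Ras tumors. The p-values of basal-type against luminal-type rest on the spread within a pooled class, which mixes differences between models with those within them. The fit with the model as a random block is given beside them.

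Across the 8 models, 33 of the 36 genes differed by an F test at an adjusted p under 0.05 (limma), where 74.5% of all genes tested did. Ifi35 (adjusted p = 0.0633), Gbp2 (adjusted p = 0.0712) and Psmb10 (adjusted p = 0.273) did not pass. Without the p53-/- transplant tumors 19 of the 36 passed, where 70% of all genes did. The p53-/- transplant group held the highest of the 9 group means for 29 genes. The share of all genes with their highest mean in this group was not computed, so the count is a description. Lowest means are not counted here, since for several genes more than 1 group lay near the low end of the table, where levels have no order.

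A mean z score over the 36 genes, in SD units of each gene over the 46 arrays, summarises the order of the groups as a description. It was 1.11 ± 0.40 (SD, n = 7) in the p53-/- transplant tumors and -0.87 ± 0.51 (SD, n = 4) in the MMTV-Wnt1 tumors. The normal glands lay at -0.57 ± 0.17 (SD, n = 5). Between them the means were 0.24 ± 0.49 (SD, n = 6) in MMTV-PymT, 0.14 ± 0.27 (SD, n = 5) in C3(1)/Tag, 0.02 ± 0.16 (SD, n = 5) in MMTV-Her2/neu, 0.00 ± 0.91 (SD, n = 5) in MMTV-H-Ras, -0.41 ± 0.46 (SD, n = 5) in BRCA1-/-p53+/- and -0.41 ± 1.18 (SD, n = 4) in MMTV-c-Myc. Neighbors in this order overlapped within their spread, and the wide SD of MMTV-H-Ras and MMTV-c-Myc came with single tumors at both ends.

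**Figure D1:**
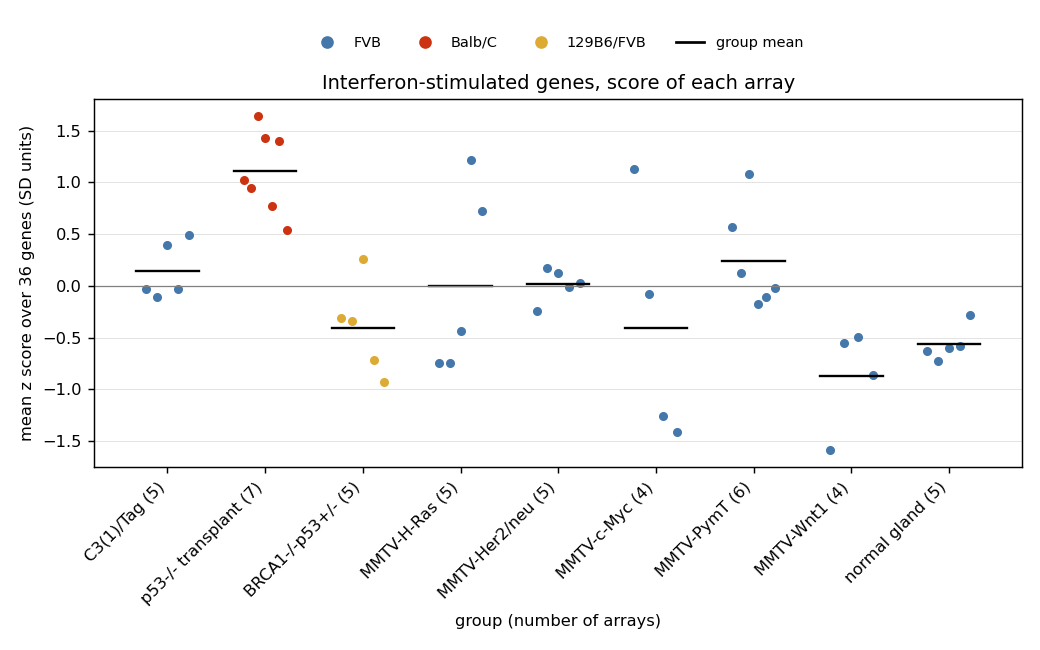
Mean z score over the 36 interferon-stimulated genes (vertical axis, SD units) in each of the 46 arrays, by group and colored by strain. The 7 p53-/- transplant arrays lie between 0.54 and 1.64, the 4 MMTV-Wnt1 arrays between -1.59 and -0.49, and MMTV-c-Myc spans -1.41 to 1.13.

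Single tumors set the highest levels of single genes. p53-/- transplant array 3 was the highest of all 46 arrays for 13 genes and MMTV-H-Ras array 4 for 12, followed by MMTV-c-Myc array 1 for 5. The same counts over all genes were not made, so these too are descriptions.

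**Figure D2:**
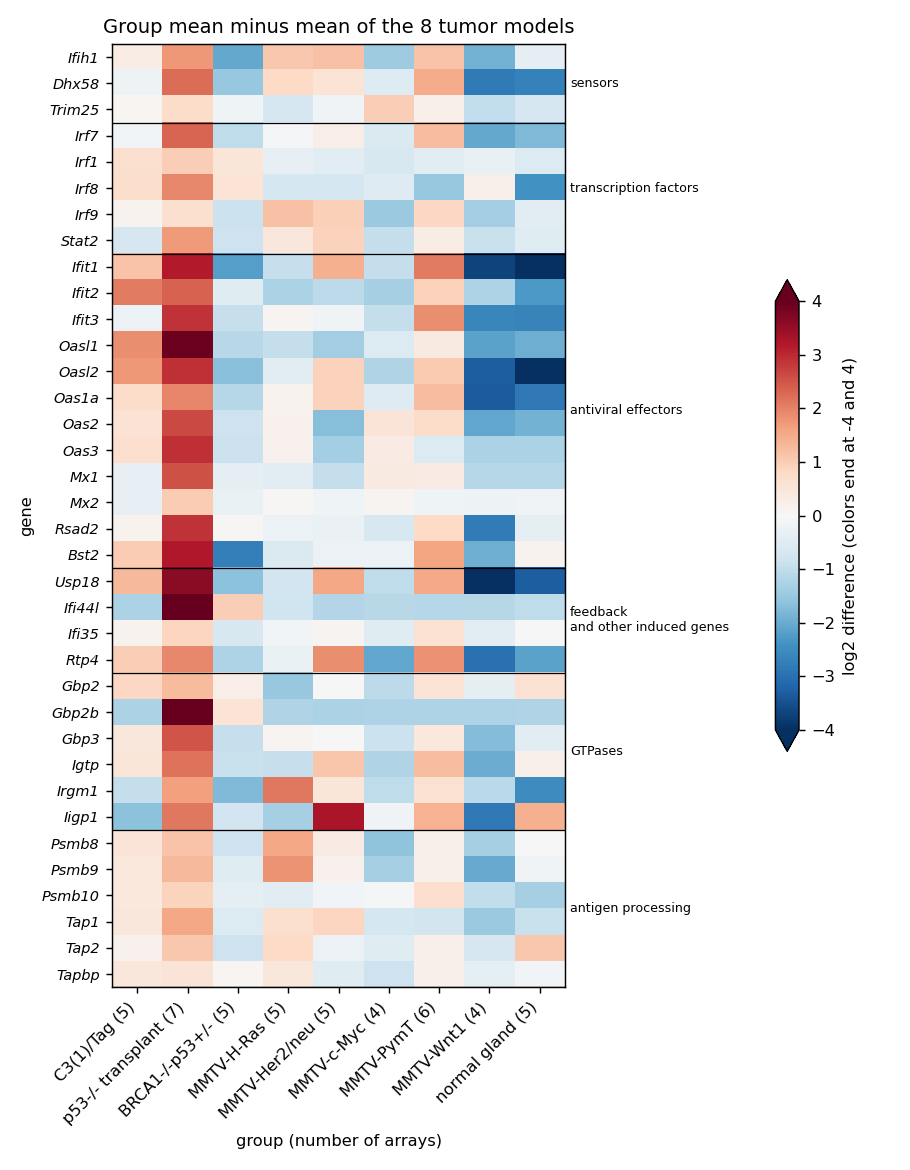
Heat map of each group's mean log2 level minus the mean of the 8 tumor models, for the 36 genes (rows, by role) and the 9 groups (columns), with colors capped at 4 on either side of 0. The p53-/- transplant column is above the mean of the models for all 36 genes.

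The p53-/- transplant tumors had higher levels of nearly the whole set than the mean of the other 7 models. Of the 36 genes 32 were higher and 0 lower, where 10.6% of all genes were higher and 5.69% lower (35 and 0 genes at an unadjusted p under 0.05, limma). The median log2 difference of the 36 was 2.32, against 0.06 over all genes, and all 36 differences were above 0. By role, 3 of 3 sensors, 4 of 5 transcription factors, 12 of 12 antiviral effectors, 4 of 4 feedback and other induced genes, 5 of 6 GTPases and 4 of 6 genes of antigen processing were higher.

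The largest differences were those of Gbp2b, a guanylate-binding GTPase (log2 difference 7.83, SE 0.44), and Ifi44l, an interferon-induced gene of the Ifi44 family (6.47, SE 0.32, adjusted p = 3.58e-19). They were followed by Oasl1, a relative of the oligoadenylate synthetases that restrains translation of Irf7 (4.50, SE 0.50, adjusted p = 1.97e-08), and by Usp18, a protease that dampens signalling at the type I interferon receptor (4.12, SE 0.92, adjusted p = 0.0016). Gbp2b is counted among the higher genes but passed the filter only through the p53-/- transplant tumors, so no p-value is given for it. The SEs of Gbp2b and Ifi44l pool all 9 groups, most of which lay at the low end of the table with little spread. Within the p53-/- transplant tumors the SD was 1.61 for Gbp2b and 0.99 for Ifi44l (n = 7). These SEs and the p-value of Ifi44l therefore understate the spread of these tumors. Irf9 (0.73, adjusted p = 0.151), Gbp2 (1.46, adjusted p = 0.0961), Psmb10 (1.02, adjusted p = 0.171) and Tapbp (0.59, adjusted p = 0.0897) did not pass.

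Leaving out each array in turn gave 27 to 33 higher genes, and 26 of the 32 kept their call each time. The 6 that lost it at least once were Ifi35, Psmb8, Psmb9, Iigp1, Tap1 and Tap2. The second probe sets of Dhx58 (log2 difference 0.13, adjusted p = 0.823) and Tap1 (-0.38, adjusted p = 0.433), both with means near the low end of the table, did not follow the ones used.

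**Figure D3:**
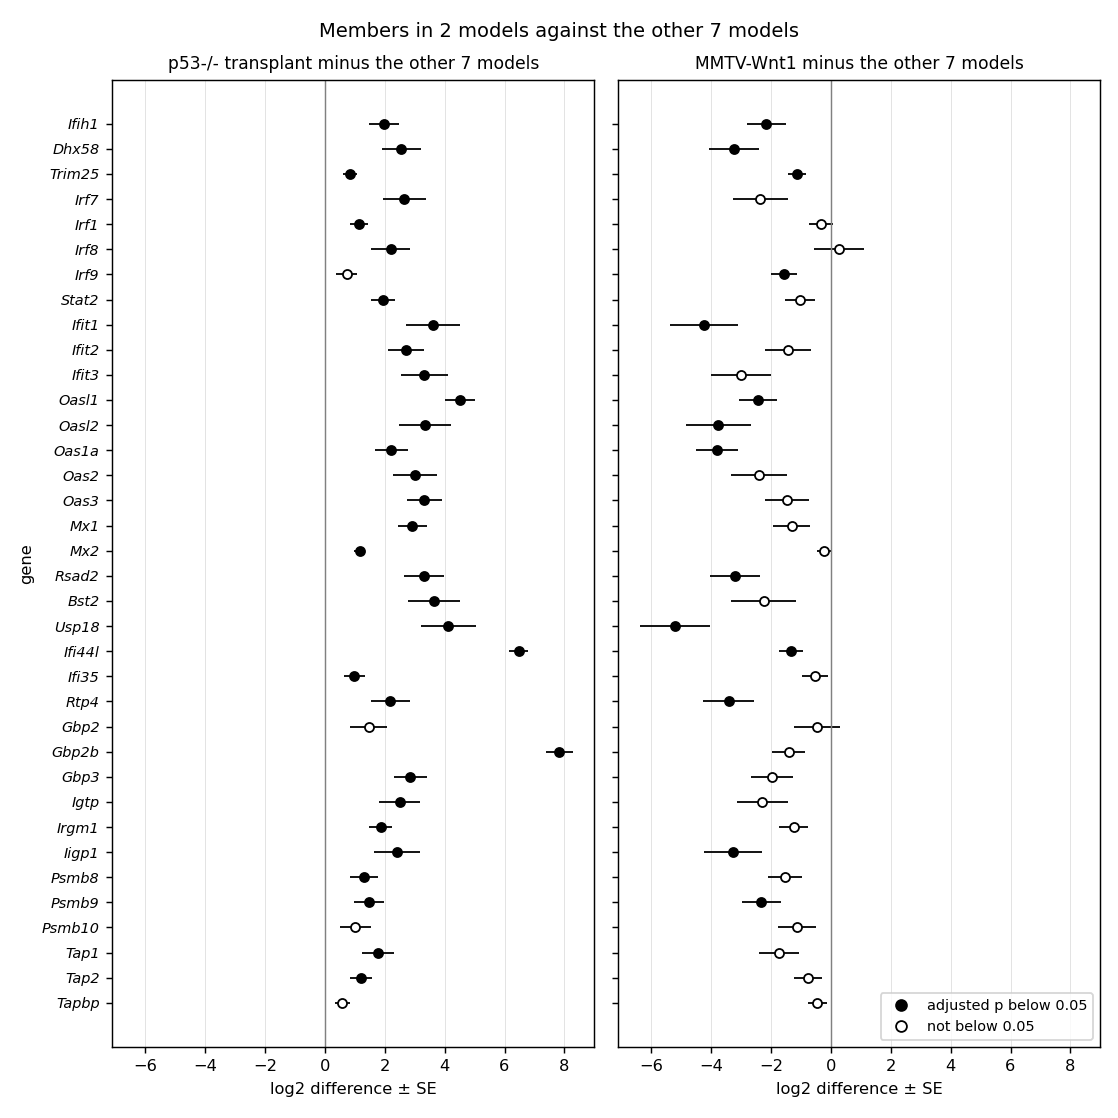
Log2 difference with its SE for each of the 36 genes, p53-/- transplant and MMTV-Wnt1 tumors each minus the mean of the other 7 models, with filled points for an adjusted p under 0.05. In the p53-/- transplant panel 32 points are filled and all lie above 0, and in the MMTV-Wnt1 panel 14 are filled and all lie below 0.

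Markers of other cells in the p53-/- transplant tumors are given beside this result, and their part in it was not tested. Of the macrophage markers 17 of 18 passed the filter and 2 of 17 were higher (Fcgr1 and Cd14), and their log2 summed level ran from 13.19 to 15.28, against 12.00 to 16.69 over the other groups. Of the T and NK cell markers 5 of 17 passed and 1 was higher (Gzma), with a log2 summed level of 5.75 to 10.03 against 5.74 to 8.21 in the other groups. The T and NK cell genes Cd8a, Cd8b1, Cd2, Cd247, Prf1, Nkg7 and Ncr1 did not pass the filter. Higher too were 1 of 4 dendritic cell markers, 2 of 4 neutrophil markers, 1 of 5 B and plasma cell markers, 4 of 14 fibroblast and matrix markers and 3 of 10 luminal epithelial markers, and none of these lists held a lower gene. The array that was highest for 13 interferon-stimulated genes, p53-/- transplant array 3, had a macrophage z score of -0.77 and a T and NK cell z score of 0.89.

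MMTV-Wnt1 tumors stood at the other end, with 14 of the 36 genes lower than the mean of the other 7 models and 0 higher, where 3.69% of all genes were lower and 2.64% higher (26 lower and 0 higher at an unadjusted p under 0.05, limma). The median difference was -1.64, against -0.09 over all genes, and 1 gene of the 36, Irf8 (0.27 by the probe set used), was above 0. The largest were Usp18 (-5.20, SE 1.16, adjusted p = 0.00402), Ifit1 (-4.24, SE 1.13, adjusted p = 0.0162), Oas1a (-3.81, SE 0.70, adjusted p = 0.000626) and Oasl2 (-3.75, SE 1.09, adjusted p = 0.0285). Rtp4, Iigp1, Dhx58, Rsad2, Oasl1, Psmb9, Ifih1, Irf9, Ifi44l and Trim25 were also lower, by 1.12 to 3.41 on the log2 scale. Other probe sets of Dhx58 (-0.40, adjusted p = 0.673), Iigp1 (-1.62, adjusted p = 0.215) and Rtp4 (-1.49, adjusted p = 0.0856) had the same direction without passing. So did both other probe sets of Rsad2 (-1.26, adjusted p = 0.286, and -2.86, adjusted p = 0.0555) and 1 of Trim25 (-0.45, adjusted p = 0.282), while another of Trim25 (-1.55, adjusted p = 0.000806) and that of Ifi44l (-1.12, adjusted p = 0.016) passed. Ifi44l lay at the low end of the table in the MMTV-Wnt1 tumors (2.30 to 2.58), as in the normal glands (2.46 to 2.62). Its lower call was made against a mean that held the p53-/- transplant tumors (8.28 to 10.77). The call was lost without any one MMTV-Wnt1 array.

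With 4 tumors the MMTV-Wnt1 count rested on single arrays. It was 4 without MMTV-Wnt1 array 1 and 8 without array 4, and ran from 4 to 16 over all arrays left out. In these tumors 0 of 17 macrophage markers changed, with a log2 summed level of 13.44 to 16.69, 5 of 7 basal and myoepithelial markers were higher, and 2 of 12 endothelial and 2 of 14 fibroblast and matrix markers were higher. Their part in the result was not tested. The comparisons of models share tumors, since each model is part of the mean the others are set against.

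The sensors detect viral or misplaced cellular RNA. Ifih1 recognizes long double-stranded RNA. Ifih1 measured 8.90, 8.02, 9.09, 9.51 and 10.04 in the C3(1)/Tag tumors, 9.68 to 11.36 with a median of 10.41 in the 7 p53-/- transplant tumors, and 8.02, 4.64, 8.10, 5.59 and 7.42 in the BRCA1-/-p53+/- tumors. For Ifih1 the MMTV-H-Ras tumors gave 8.42, 9.08, 8.82, 12.20 and 10.82, the MMTV-Her2/neu tumors 8.99, 10.40, 10.07, 10.14 and 10.17, and the 6 MMTV-PymT tumors 8.84 to 11.04 with a median of 9.94. Ifih1 was at 9.72, 8.43, 4.00 and 7.31 in the MMTV-c-Myc tumors, 4.15, 8.57, 7.42 and 7.49 in the MMTV-Wnt1 tumors, and 8.57, 7.80, 7.54, 8.77 and 9.32 in the normal glands. The p53-/- transplant tumors overlapped with tumors of the MMTV-PymT, MMTV-H-Ras, C3(1)/Tag, MMTV-c-Myc and MMTV-Her2/neu models, all of them FVB, and MMTV-c-Myc array 3 and MMTV-Wnt1 array 1 were the lowest.

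Dhx58 regulates the other RNA sensors. Dhx58 measured 3.58, 4.51, 5.72, 4.71 and 5.72 in the C3(1)/Tag tumors, 4.27 to 8.28 with a median of 7.70 in the 7 p53-/- transplant tumors, and 3.18, 3.28, 4.94, 3.14 and 3.07 in the BRCA1-/-p53+/- tumors. For Dhx58 the MMTV-H-Ras tumors gave 3.15, 4.27, 4.30, 9.68 and 7.77, the MMTV-Her2/neu tumors 3.15, 6.26, 5.92, 6.65 and 5.96, and the 6 MMTV-PymT tumors 5.52 to 8.58 with a median of 6.04. Dhx58 was at 9.32, 3.98, 2.36 and 2.41 in the MMTV-c-Myc tumors, 2.39, 2.04, 2.37 and 2.05 in the MMTV-Wnt1 tumors, and 2.02, 2.41, 2.40, 2.39 and 2.38 in the normal glands. All MMTV-Wnt1 tumors and all normal glands sat at the low end of the table, while single tumors of MMTV-H-Ras, MMTV-c-Myc and MMTV-PymT were above every p53-/- transplant tumor. Trim25, a ubiquitin ligase of the sensor pathway, was higher in the p53-/- transplant tumors by 0.85 (SE 0.23, adjusted p = 0.00984) and spanned 9.37 to 12.95 over the FVB arrays.

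Of the transcription factors, Irf7 drives the later wave of type I interferon production. Irf7 measured 7.99, 6.82, 8.70, 8.02 and 9.32 in the C3(1)/Tag tumors, 9.06 to 11.40 with a median of 10.74 in the 7 p53-/- transplant tumors, and 8.92, 6.97, 8.03, 6.77 and 5.70 in the BRCA1-/-p53+/- tumors. For Irf7 the MMTV-H-Ras tumors gave 6.74, 5.16, 6.54, 12.26 and 10.41, the MMTV-Her2/neu tumors 7.32, 8.87, 9.05, 8.96 and 8.65, and the 6 MMTV-PymT tumors 8.21 to 11.18 with a median of 9.54. Irf7 was at 13.53, 9.02, 4.20 and 4.12 in the MMTV-c-Myc tumors, 5.20, 6.19, 6.69 and 6.83 in the MMTV-Wnt1 tumors, and 6.52, 5.77, 6.66, 6.86 and 6.82 in the normal glands. MMTV-c-Myc held both the highest and the lowest Irf7 levels of the series.

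Irf8 acts in interferon responses and is also a lineage factor of macrophages and dendritic cells. Irf8 measured 7.58, 6.16, 6.45, 6.67 and 8.26 in the C3(1)/Tag tumors, 6.84 to 9.12 with a median of 8.49 in the 7 p53-/- transplant tumors, and 6.94, 5.65, 9.34, 9.44 and 2.94 in the BRCA1-/-p53+/- tumors. For Irf8 the MMTV-H-Ras tumors gave 2.98, 5.95, 6.05, 6.13 and 7.07, the MMTV-Her2/neu tumors 4.63, 6.20, 6.35, 5.49 and 5.48, and the 6 MMTV-PymT tumors 3.07 to 6.95 with a median of 4.99. Irf8 was at 8.71, 3.03, 7.36 and 4.17 in the MMTV-c-Myc tumors, 3.52, 7.01, 9.86 and 5.84 in the MMTV-Wnt1 tumors, and 4.13, 2.93, 4.15, 4.17 and 4.17 in the normal glands. By the probe set used, Irf8 was the 1 gene whose MMTV-Wnt1 mean was not below the other models, with 9.86 in MMTV-Wnt1 array 3. A second probe set of Irf8 had the opposite direction in the MMTV-Wnt1 tumors (-0.52, adjusted p = 0.637, limma). Irf1, an activator of many interferon-induced genes, was higher in the p53-/- transplant tumors by 1.14 (SE 0.31, adjusted p = 0.00839), and Stat2, the partner of Irf9 in the complex that binds the ISRE, by 1.94 (SE 0.40, adjusted p = 0.000688).

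Of the antiviral effectors, which block steps of virus growth, all 12 were higher in the p53-/- transplant tumors. Ifit1 binds viral RNA and blocks its translation. Ifit1 measured 7.08, 6.07, 8.40, 7.87 and 8.84 in the C3(1)/Tag tumors, 8.13 to 10.46 with a median of 9.77 in the 7 p53-/- transplant tumors, and 5.19, 2.31, 9.07, 2.66 and 2.34 in the BRCA1-/-p53+/- tumors. For Ifit1 the MMTV-H-Ras tumors gave 2.28, 2.13, 2.83, 12.00 and 8.77, the MMTV-Her2/neu tumors 7.31, 8.65, 7.93, 7.74 and 8.03, and the 6 MMTV-PymT tumors 7.23 to 10.74 with a median of 8.21. Ifit1 was at 9.81, 8.09, 2.13 and 2.17 in the MMTV-c-Myc tumors, 2.23, 3.78, 3.18 and 2.07 in the MMTV-Wnt1 tumors, and 2.08, 2.09, 2.28, 2.28 and 2.28 in the normal glands. The level was near the low end in all normal glands, and in the MMTV-H-Ras, MMTV-c-Myc and BRCA1-/-p53+/- models some tumors sat at that low end while others reached levels of the p53-/- transplant tumors.

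Oasl2 belongs to the oligoadenylate synthetase family. Oasl2 measured 9.30, 8.92, 10.18, 9.25 and 10.56 in the C3(1)/Tag tumors, 9.47 to 11.49 with a median of 10.95 in the 7 p53-/- transplant tumors, and 8.40, 5.75, 9.80, 4.90 and 2.25 in the BRCA1-/-p53+/- tumors. For Oasl2 the MMTV-H-Ras tumors gave 5.57, 3.43, 6.06, 11.87 and 10.37, the MMTV-Her2/neu tumors 7.66, 9.12, 9.33, 8.96 and 9.06, and the 6 MMTV-PymT tumors 7.88 to 10.85 with a median of 8.39. Oasl2 was at 11.02, 8.85, 4.79 and 2.19 in the MMTV-c-Myc tumors, 3.79, 5.58, 6.94 and 2.19 in the MMTV-Wnt1 tumors, and 2.24, 2.84, 5.93, 3.58 and 2.70 in the normal glands. The normal glands lay below all MMTV-PymT, MMTV-Her2/neu, C3(1)/Tag and p53-/- transplant tumors. Mx1 and Mx2, dynamin-like GTPases, and Oas3 and Oas2 had medians of 2.62, 4.86, 2.19 and 4.52 over the FVB arrays against 6.26, 6.19, 6.81 and 8.39 over the p53-/- transplant tumors. All 4 overlapped between the strains, since the FVB arrays reached 6.27, 6.35, 8.47 and 10.55 and the p53-/- transplant tumors ran down to 3.62, 5.05, 4.28 and 6.89, and for Oas3 MMTV-c-Myc array 1 was above every p53-/- transplant tumor. Ifit2, Ifit3, Rsad2 and Bst2 were higher in the p53-/- transplant tumors by 2.72, 3.32, 3.31 and 3.65 on the log2 scale.

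Among the feedback genes, Usp18 had the lowest adjusted p in the MMTV-Wnt1 tumors after Oas1a. Usp18 measured 6.80, 7.74, 9.29, 8.33 and 9.40 in the C3(1)/Tag tumors, 8.25 to 11.61 with a median of 10.75 in the 7 p53-/- transplant tumors, and 7.71, 6.06, 7.91, 2.88 and 2.34 in the BRCA1-/-p53+/- tumors. For Usp18 the MMTV-H-Ras tumors gave 3.77, 2.50, 3.04, 12.05 and 9.91, the MMTV-Her2/neu tumors 8.37, 8.49, 8.51, 8.87 and 8.65, and the 6 MMTV-PymT tumors 6.90 to 10.82 with a median of 8.09. Usp18 was at 10.85, 8.55, 2.26 and 2.42 in the MMTV-c-Myc tumors, 2.24, 2.66, 2.67 and 2.35 in the MMTV-Wnt1 tumors, and 5.18, 2.21, 5.06, 2.15 and 4.02 in the normal glands. No MMTV-Wnt1 tumor exceeded 2.67, and no p53-/- transplant, MMTV-Her2/neu, MMTV-PymT or C3(1)/Tag tumor fell below 6.80. Rtp4, an interferon-induced transport protein, was at 12.87 in MMTV-H-Ras array 4 and at 4.23 in MMTV-c-Myc array 4.

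**Figure D4:**
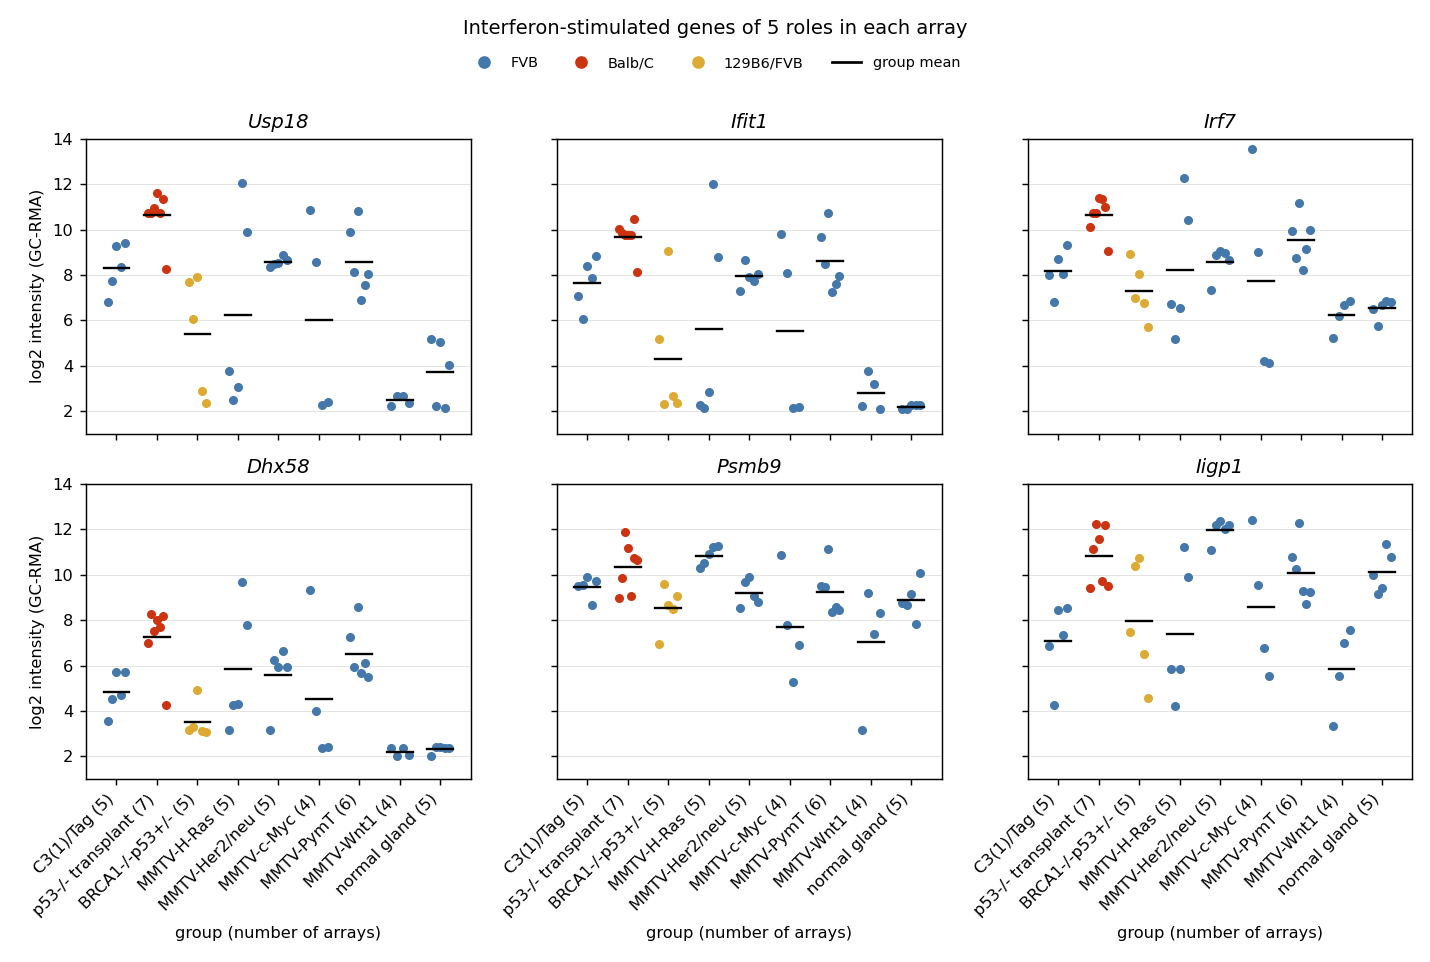
Log2 level in every array, by group, of Usp18, Ifit1, Irf7, Dhx58, Psmb9 and Iigp1, with group means as bars. For Usp18 the 4 MMTV-Wnt1 tumors lie between 2.24 and 2.67 and the p53-/- transplant tumors between 8.25 and 11.61, and the MMTV-H-Ras and MMTV-c-Myc tumors fall at both ends.

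Among the GTPases, which defend against intracellular pathogens, Iigp1 had a pattern of its own. Iigp1 measured 6.86, 4.28, 8.44, 7.33 and 8.52 in the C3(1)/Tag tumors, 9.42 to 12.23 with a median of 11.12 in the 7 p53-/- transplant tumors, and 7.50, 10.39, 10.76, 6.51 and 4.58 in the BRCA1-/-p53+/- tumors. For Iigp1 the MMTV-H-Ras tumors gave 5.85, 4.20, 5.85, 11.21 and 9.90, the MMTV-Her2/neu tumors 11.10, 12.19, 12.39, 12.02 and 12.20, and the 6 MMTV-PymT tumors 8.72 to 12.30 with a median of 9.80. Iigp1 was at 12.43, 9.57, 6.76 and 5.53 in the MMTV-c-Myc tumors, 3.36, 5.54, 7.00 and 7.57 in the MMTV-Wnt1 tumors, and 10.01, 9.14, 9.41, 11.38 and 10.77 in the normal glands. All 5 MMTV-Her2/neu tumors were at 11.10 or above, and the difference of this model from the other 7 was 3.72 (SE 0.89, adjusted p = 0.0019). Igtp and Irgm1 were higher in the p53-/- transplant tumors by 2.50 and 1.87.

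The immunoproteasome subunits Psmb8 and Psmb9 cut proteins into peptides for class I presentation. Psmb8 measured 10.51, 10.76, 11.11, 9.89 and 10.96 in the C3(1)/Tag tumors, 10.49 to 12.82 with a median of 11.07 in the 7 p53-/- transplant tumors, and 8.59, 7.19, 10.53, 9.74 and 10.39 in the BRCA1-/-p53+/- tumors. For Psmb8 the MMTV-H-Ras tumors gave 11.04, 11.56, 11.53, 12.09 and 12.07, the MMTV-Her2/neu tumors 10.08, 10.72, 10.88, 10.27 and 10.38, and the 6 MMTV-PymT tumors 9.29 to 11.89 with a median of 10.33. Psmb8 was at 11.65, 9.05, 6.89 and 6.48 in the MMTV-c-Myc tumors, 5.97, 10.30, 10.04 and 8.84 in the MMTV-Wnt1 tumors, and 10.11, 9.98, 10.18, 9.62 and 10.67 in the normal glands. All 5 MMTV-H-Ras tumors were at 11.04 or above, also the 3 in which Ifit1 and Usp18 were near the low end of the table.

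Psmb9 measured 9.49, 9.54, 9.91, 8.66 and 9.73 in the C3(1)/Tag tumors, 8.99 to 11.87 with a median of 10.66 in the 7 p53-/- transplant tumors, and 6.97, 9.58, 8.65, 8.49 and 9.07 in the BRCA1-/-p53+/- tumors. For Psmb9 the MMTV-H-Ras tumors gave 10.30, 10.52, 10.93, 11.23 and 11.26, the MMTV-Her2/neu tumors 8.56, 9.70, 9.90, 9.08 and 8.81, and the 6 MMTV-PymT tumors 8.35 to 11.13 with a median of 9.03. Psmb9 was at 10.86, 7.81, 5.29 and 6.89 in the MMTV-c-Myc tumors, 3.17, 9.22, 7.41 and 8.30 in the MMTV-Wnt1 tumors, and 8.78, 8.66, 9.15, 7.85 and 10.07 in the normal glands. MMTV-H-Ras tumors were again all high, from 10.30 to 11.26, and MMTV-Wnt1 array 1 was the lowest. The peptide transporter genes Tap1 and Tap2 were higher in the p53-/- transplant tumors by 1.78 and 1.22.

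Among the models of the FVB strain, each again set against all 7 other models of any strain, MMTV-H-Ras tumors had 4 genes higher and 2 lower than the other 7 models (9.64% and 14.8% of all genes). Higher were Irgm1, an immunity-related GTPase (2.40, SE 0.44, adjusted p = 0.000103), Psmb9 (2.06, SE 0.59, adjusted p = 0.00942), Psmb8 (1.75, SE 0.53, adjusted p = 0.0132) and Irf9 (1.34, SE 0.40, adjusted p = 0.0129). The call of Irf9 was lost without MMTV-H-Ras array 4 or 5. Lower were Gbp2b and Trim25 (-0.77, SE 0.27, adjusted p = 0.0313). The lower count was 4 without BRCA1-/-p53+/- array 5 or MMTV-H-Ras array 4, 1 without MMTV-H-Ras array 1, and 0 without array 2 or 3. In array 4, where Ifit1 was at 12.00 and Usp18 at 12.05, the macrophage z score was -0.67 and that of T and NK cells 0.58. In the MMTV-H-Ras tumors 9 of 14 fibroblast and matrix markers, 2 of 4 dendritic cell markers, 3 of 10 luminal epithelial markers and 1 of 17 macrophage markers were lower, and their part in the result was not tested.

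MMTV-Her2/neu tumors had 3 genes higher and 3 lower (16.1% and 9.07% of all genes). Besides Iigp1, Rtp4 (2.14, SE 0.76, adjusted p = 0.0361) and Irf9 (1.08, SE 0.40, adjusted p = 0.0451) were higher, and Oasl1 (-1.61, SE 0.57, adjusted p = 0.0354), Gbp2b and Ifi44l were lower. The call of Irf9 was lost when any one of 17 arrays, of this and other models, was left out. A second probe set of Rtp4 had the opposite direction without passing (-0.67, adjusted p = 0.318, limma). That of Iigp1 was higher too (2.80, adjusted p = 0.00236, limma). The higher count was 1 without any one of MMTV-Her2/neu arrays 2 to 5, and the lower count 1 without array 1, 3 or 5. MMTV-PymT tumors had 1 gene higher, Rtp4 (2.08, SE 0.71, adjusted p = 0.0355), and 2 lower, Gbp2b and Ifi44l (10.9% and 6.89% of all genes). These counts depended on the probe set used. Probe sets not used were higher for Dhx58 (1.62, adjusted p = 0.00216) and Tapbp (1.37, adjusted p = 0.0204, limma). For Rsad2 (1.57, adjusted p = 0.0437) and Trim25 (0.99, adjusted p = 0.000611) so was 1 of the others, while another (0.81 and 0.27) did not pass. That of Irf8 was lower (-1.31, adjusted p = 0.028). The higher count became 6 without MMTV-H-Ras array 4 or MMTV-c-Myc array 1, 3 without BRCA1-/-p53+/- array 3, 2 without MMTV-c-Myc array 2 or MMTV-PymT array 5, and 0 without any other MMTV-PymT array. The lower count was 1 without any MMTV-PymT array other than array 5. In the MMTV-Her2/neu tumors 10 of 14 fibroblast and matrix markers, 6 of 17 macrophage markers, 2 of 4 neutrophil markers, 2 of 4 dendritic cell markers and 3 of 7 basal and myoepithelial markers were lower, with a log2 summed level of the macrophage markers of 12.85 to 13.51. In the MMTV-PymT tumors 7 of 12 endothelial markers, 7 of 14 fibroblast and matrix markers and 2 of 4 dendritic cell markers were lower and 2 of 4 neutrophil markers higher. The part of these cells in either result was not tested.

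MMTV-c-Myc tumors had 1 gene higher, Trim25 (1.13, SE 0.30, adjusted p = 0.0111), and 4 lower, where 4.76% of all genes were called in each direction. Neither other probe set of Trim25 passed (0.85, adjusted p = 0.0549, and -0.06, adjusted p = 0.915, limma). The lower genes were Psmb8 (-1.83, SE 0.58, adjusted p = 0.0381), Irf9 (-1.70, SE 0.44, adjusted p = 0.0108), Ifi44l and Tapbp, which loads peptides onto class I molecules (-0.95, SE 0.31, adjusted p = 0.0406). The lower count was 10 without MMTV-c-Myc array 1, 2 without array 2, and 0 without array 3 or 4. The higher count was 0 without array 1 or 2. In array 1, where Irf7 reached 13.53, the macrophage z score was 0.41 and that of T and NK cells -0.46.

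C3(1)/Tag tumors had 2 genes higher, Ifit2 (2.37, SE 0.69, adjusted p = 0.00796) and Oasl1 (2.12, SE 0.57, adjusted p = 0.00446), and 2 lower, Ifi44l and Gbp2b (19.5% and 9.42% of all genes). The lower count was 1 without any one of the C3(1)/Tag arrays. BRCA1-/-p53+/- tumors had 1 gene higher, Ifi44l (1.12, SE 0.36, adjusted p = 0.0272), and 3 lower (6.75% and 11.9% of all genes). The lower genes were Bst2, which tethers budding virus to the cell (-3.14, SE 0.99, adjusted p = 0.0225), Ifih1 (-2.34, SE 0.59, adjusted p = 0.00564) and Irgm1 (-2.02, SE 0.44, adjusted p = 0.00152). The lower count was 1 without BRCA1-/-p53+/- array 2, and the higher count 0 without array 1, 2 or 3. A second probe set of Ifi44l gave -0.22 (adjusted p = 0.599) in this model. In these tumors 13 of 14 fibroblast and matrix markers and 7 of 12 endothelial markers were higher and 5 of 10 luminal epithelial markers lower. Higher too were 4 of 17 macrophage, 2 of 4 neutrophil and 2 of 7 adipocyte markers. Of the 4 dendritic cell markers 1 was higher and 1 lower. The part of these cells in the result was not tested.

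Gbp2b and Ifi44l lay near the low end of the table in all FVB arrays and were high in all Balb/C tumors, which were all of the p53-/- transplant model. Gbp2b measured 2.12, 2.13, 2.14, 2.13 and 2.15 in the C3(1)/Tag tumors, 7.49 to 11.78 with a median of 10.11 in the 7 p53-/- transplant tumors, and 5.11, 2.18, 2.13, 7.99 and 2.18 in the BRCA1-/-p53+/- tumors. For Gbp2b the MMTV-H-Ras tumors gave 2.20, 2.17, 2.17, 2.18 and 2.17, the MMTV-Her2/neu tumors 2.14, 2.11, 2.13, 2.11 and 2.14, and the 6 MMTV-PymT tumors 2.15 to 2.18 with a median of 2.16. Gbp2b was at 2.19, 2.19, 2.14 and 2.13 in the MMTV-c-Myc tumors, 2.23, 2.11, 2.13 and 2.14 in the MMTV-Wnt1 tumors, and 2.23, 2.16, 2.20, 2.22 and 2.17 in the normal glands. In the 34 FVB arrays Gbp2b stayed within 2.11 to 2.23, at the low end of the table, and in the 129B6/FVB tumors 2 of 5 arrays were above that range. The 7 Balb/C tumors did not overlap with the FVB arrays and overlapped with 1 of the 5 129B6/FVB tumors, at 7.99.

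Ifi44l measured 2.22, 2.29, 2.33, 2.30 and 2.33 in the C3(1)/Tag tumors, 8.28 to 10.77 with a median of 8.71 in the 7 p53-/- transplant tumors, and 4.75, 6.65, 6.18, 2.49 and 2.69 in the BRCA1-/-p53+/- tumors. For Ifi44l the MMTV-H-Ras tumors gave 3.67, 2.65, 2.50, 2.51 and 2.51, the MMTV-Her2/neu tumors 2.46, 2.29, 2.44, 2.35 and 2.48, and the 6 MMTV-PymT tumors 2.33 to 2.46 with a median of 2.43. Ifi44l was at 2.40, 2.74, 2.30 and 2.44 in the MMTV-c-Myc tumors, 2.58, 2.30, 2.30 and 2.49 in the MMTV-Wnt1 tumors, and 2.62, 2.50, 2.62, 2.50 and 2.46 in the normal glands. The Balb/C tumors, from 8.28 to 10.77, were above all other arrays, and the 129B6/FVB tumors reached 6.65. The FVB arrays stayed within 2.22 to 3.67, also in MMTV-H-Ras array 4 and MMTV-c-Myc array 1, where the mean z score over the 36 genes was 1.22 and 1.13. A second probe set of Ifi44l gave the same picture in the p53-/- transplant tumors (log2 difference 6.99, adjusted p = 6.17e-25). This p-value too rests on a spread pooled with the FVB groups, which lay at the low end of the table. Whether the probes match the FVB sequence was not tested. The lower calls of Gbp2b and Ifi44l in FVB models were made against a mean that held the p53-/- transplant tumors, with these models at the low end of the table.

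Gbp2 and Gbp3, relatives of Gbp2b whose transcripts the probes may share in part, did not set the Balb/C tumors apart from the FVB arrays in this way. Gbp2 measured 9.59, 9.0, 10.13, 9.28 and 10.44 in the C3(1)/Tag tumors, 8.27 to 12.00 with a median of 10.09 in the 7 p53-/- transplant tumors, and 7.83, 9.94, 11.50, 9.53 and 6.73 in the BRCA1-/-p53+/- tumors. For Gbp2 the MMTV-H-Ras tumors gave 4.54, 5.61, 6.67, 10.33 and 9.54, the MMTV-Her2/neu tumors 8.30, 9.32, 9.18, 8.52 and 9.06, and the 6 MMTV-PymT tumors 8.21 to 10.74 with a median of 9.23. Gbp2 was at 10.11, 8.61, 8.12 and 4.43 in the MMTV-c-Myc tumors, 6.62, 8.73, 10.09 and 8.38 in the MMTV-Wnt1 tumors, and 9.49, 9.14, 9.26, 9.14 and 10.33 in the normal glands. FVB arrays ran from 4.43 to 10.74 and Balb/C tumors from 8.27 to 12.00, and the groups overlapped widely.

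Gbp3 measured 7.34, 7.06, 8.99, 7.88 and 10.01 in the C3(1)/Tag tumors, 8.97 to 11.30 with a median of 10.38 in the 7 p53-/- transplant tumors, and 6.78, 6.89, 8.53, 7.19 and 5.04 in the BRCA1-/-p53+/- tumors. For Gbp3 the MMTV-H-Ras tumors gave 7.46, 5.25, 5.55, 11.42 and 9.90, the MMTV-Her2/neu tumors 7.80, 7.65, 8.01, 7.48 and 8.12, and the 6 MMTV-PymT tumors 6.86 to 10.16 with a median of 7.72. Gbp3 was at 8.91, 7.98, 5.51 and 5.35 in the MMTV-c-Myc tumors, 4.47, 7.24, 6.58 and 6.01 in the MMTV-Wnt1 tumors, and 6.50, 7.38, 7.09, 7.36 and 8.36 in the normal glands. Gbp3 was higher in the p53-/- transplant tumors by 2.86 (SE 0.55, adjusted p = 0.000317), and single FVB tumors of MMTV-H-Ras, MMTV-PymT and C3(1)/Tag lay within or above their range.

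Ifi35 is an interferon-induced protein of the cytoplasm and nucleus. Ifi35 measured 7.85, 8.22, 8.72, 8.10 and 8.16 in the C3(1)/Tag tumors, 8.10 to 9.55 with a median of 8.72 in the 7 p53-/- transplant tumors, and 7.26, 8.42, 6.86, 7.10 and 7.60 in the BRCA1-/-p53+/- tumors. For Ifi35 the MMTV-H-Ras tumors gave 6.78, 7.11, 7.62, 9.23 and 9.17, the MMTV-Her2/neu tumors 7.81, 8.48, 8.26, 8.50 and 7.86, and the 6 MMTV-PymT tumors 7.17 to 9.78 with a median of 9.05. Ifi35 was at 9.79, 7.95, 6.34 and 6.24 in the MMTV-c-Myc tumors, 6.31, 8.20, 8.10 and 7.88 in the MMTV-Wnt1 tumors, and 7.94, 7.64, 7.54, 8.64 and 8.65 in the normal glands. The strains overlapped, with 6.24 to 9.79 in FVB, 8.10 to 9.55 in Balb/C and 6.86 to 8.42 in 129B6/FVB arrays. The p53-/- transplant difference of 0.98 (SE 0.35) was just past the threshold (adjusted p = 0.0471) and was lost when any one of 28 arrays was left out.

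**Figure D5:**
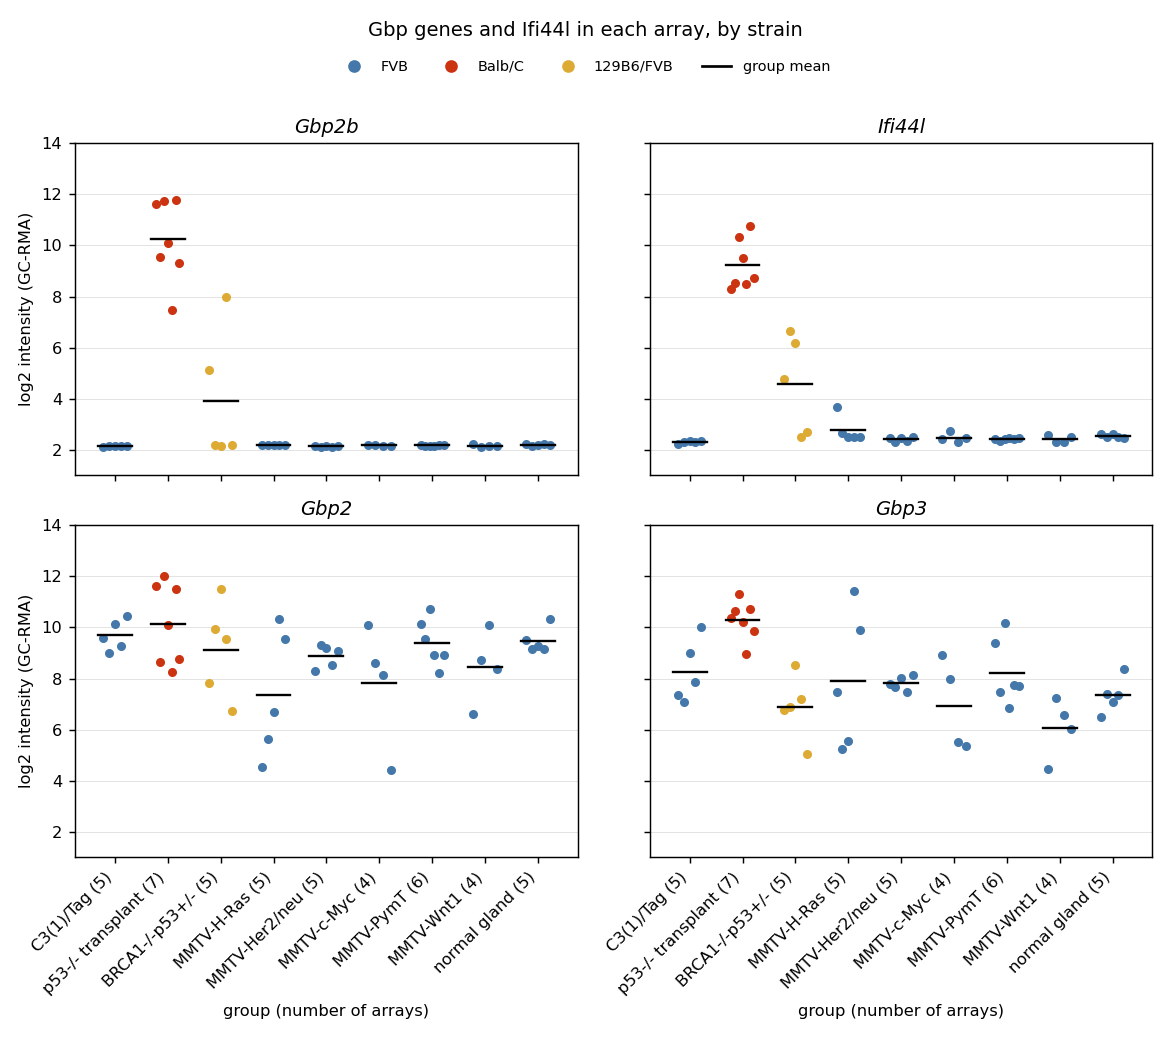
Log2 level in every array, by group and colored by strain, of Gbp2b, Ifi44l, Gbp2 and Gbp3. Gbp2b stays within 2.11 to 2.23 in the 34 FVB arrays and lies between 7.49 and 11.78 in the 7 Balb/C tumors, while Gbp2 and Gbp3 span 4.43 to 10.74 and 4.47 to 11.42 in FVB arrays.

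The study set basal-type against luminal-type tumors. Pooled over 17 and 24 tumors, 8 of the 36 genes were higher in the basal-type tumors and 0 lower, where 15.9% of all genes were higher and 12% lower (13 and 0 genes at an unadjusted p under 0.05, limma). The median difference was 0.89, against 0.06 over all genes. In the same comparison 12 of 14 fibroblast and matrix markers, 3 of 4 dendritic cell markers, 4 of 12 endothelial markers and 4 of 17 macrophage markers were higher and 0 of each lower, and their part in the result was not tested. The largest differences among the 36 genes were those of Gbp2b (3.84, SE 0.80), Ifi44l (3.32, SE 0.65, adjusted p = 0.000297), Oasl1 (2.69, SE 0.60, adjusted p = 0.00111) and Ifit2 (2.13, SE 0.56, adjusted p = 0.00425). Gbp2b is among the 8 but passed the filter only through the p53-/- transplant tumors, which are basal-type, so no p-value is given for it. Irf8, Rsad2, Oas3 and Irf1 were higher by 1.16 to 1.87, and the call of Rsad2 was lost when any one of 6 arrays was left out. Neither other probe set of Rsad2 passed (0.68, adjusted p = 0.361, and 1.58, adjusted p = 0.0856, limma). Those of Irf8 and Ifi44l did. So did that of Gbp2 (1.79, adjusted p = 0.0362), whose used probe set did not (adjusted p = 0.0531, limma). Without the p53-/- transplant tumors 1 gene was higher, Irf1 (0.98, adjusted p = 0.00872), and 1 lower, Irgm1 (-1.69, adjusted p = 0.0146), where 12.2% of all genes were higher and 10.4% lower. Within the FVB strain, where C3(1)/Tag was the sole basal-type model, 3 genes were higher, Ifit2 (2.75, adjusted p = 0.0106), Oasl1 (2.70, adjusted p = 0.00388) and Irf1 (1.07, adjusted p = 0.0223), against 18.5% of all genes, while the differences of Gbp2b and Ifi44l were -0.02 and -0.20. When the model entered as a random block, 1 gene, Ifi44l, was higher (2.98, adjusted p = 0.0437), where 0.204% of all genes were.

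Against the normal glands, the mean of the 8 models had 13 genes higher and 1 lower, where 24.2% of all genes were higher and 17.1% lower. The median difference was 0.96, against 0.20 over all genes. The largest were Oasl2 (4.45, SE 0.98, adjusted p = 0.000314), Ifit1 (4.32, SE 1.02, adjusted p = 0.000714), Usp18 (3.30, SE 1.05, adjusted p = 0.0104) and Oas1a (2.86, SE 0.63, adjusted p = 0.000352). Dhx58, Ifit3, Irgm1, Irf8, Ifit2, Rtp4, Oasl1, Ifi44l and Trim25 were higher by 0.69 to 2.72. Second probe sets of Irf8, Rtp4 and Ifi44l and 1 of Trim25 passed too. A second probe set of Dhx58, near the low end of the table (0.24, adjusted p = 0.651), and another of Trim25 (0.37, adjusted p = 0.156) did not (limma). Tap2 was lower (-1.07, SE 0.42, adjusted p = 0.0384), and this call was lost without normal gland array 1, 2, 3 or 5. The calls of Ifit3 (without gland array 2 or 4), Rtp4 (without 1 or 2) and Trim25 (without 1, 2 or 3) also rested on single glands. Without the p53-/- transplant tumors 9 genes were higher and 1 lower (23.4% and 16.9% of all genes), and the calls lost were those of Ifit3 (2.27, adjusted p = 0.0567), Rtp4 (1.86, adjusted p = 0.069), Trim25 (0.58, adjusted p = 0.0914) and Ifi44l (0.22, adjusted p = 0.63). In the mean of the models 7 of 7 adipocyte markers and 3 of 5 T and NK cell markers were lower than in the glands, and 7 of 17 macrophage markers were higher and 2 lower. The log2 summed level of the adipocyte markers was 16.16 to 16.75 in the glands and 6.67 to 16.56 in the tumors, and the part of these cells in the result was not tested.

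No gene of the 36 was higher in every model than in the normal glands, and none lower (0 and 0, also at an unadjusted p under 0.05 in every model, limma), where 3.1% and 4.03% of all genes were. Oas1a, an oligoadenylate synthetase, was higher in 6 of the 8 models, more than any other gene of the set, and 8 genes were higher in none. All these comparisons share the 5 glands. p53-/- transplant tumors had 27 genes higher and 0 lower than the glands (26.1% and 16.6% of all genes), MMTV-PymT 13 and 0 (20.3% and 12.3%), C3(1)/Tag 11 and 1 (29.4% and 18.5%), and MMTV-Her2/neu 8 and 0 (22.3% and 12.8%). MMTV-H-Ras had 5 and 0 (14% and 14%), BRCA1-/-p53+/- 3 and 1 (16% and 16.2%), MMTV-c-Myc 2 and 1 (17.1% and 14.6%), and MMTV-Wnt1 0 and 2 (14.5% and 13.3%). At an unadjusted p under 0.05 (limma), the lower counts of p53-/- transplant, MMTV-PymT, MMTV-Her2/neu and MMTV-H-Ras tumors were 0, 0, 1 and 2, and the higher count of MMTV-Wnt1 tumors was 2.

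The wider interferon pathway was followed in 2 further lists. Of 30 interferons, receptors and signalling genes, 25 had a probe set and 22 passed the filter. In the p53-/- transplant tumors 6 of 22 were higher and 0 lower (10.6% and 5.69% of all genes), led by Zbp1, a sensor of left-handed nucleic acid (3.02), Ifngr2, a chain of the interferon gamma receptor (2.42), and the kinase Ikbke (2.16), with a median of 0.40. In MMTV-Wnt1 tumors 0 were higher and 5 lower (2.64% and 3.69% of all genes), led by Zbp1 (-3.15), the type I receptor chain Ifnar1 (-1.40) and the adaptor Mavs (-1.31). In basal-type tumors 5 were higher and 0 lower (15.9% and 12% of all genes), led by Socs3, an inhibitor of cytokine signalling (2.15), Ikbke (1.65) and Irf5 (1.37). Ifnb1, the gene of interferon beta, did not pass the filter.

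Of 51 other interferon-induced genes, 39 had a probe set and 37 passed. In the p53-/- transplant tumors 28 of 37 were higher and 0 lower (10.6% and 5.69% of all genes), with a median of 1.65, led by the T cell attracting chemokines Cxcl11 (4.72), Cxcl9 (4.64) and Cxcl10 (4.21). In MMTV-Wnt1 tumors 2 were lower, Cmpk2 (-2.97) and Lgals3bp (-2.80), and 0 higher, a share near that of all genes (3.69% lower and 2.64% higher). Basal-type tumors had 12 higher and 0 lower (15.9% and 12% of all genes), led by Cxcl10 (3.21), Cxcl9 (2.65) and Ifi204 (2.55). The other basal-type models did not share the p53-/- transplant count. Against the mean of the other models, C3(1)/Tag had 3 higher and 2 lower (19.5% and 9.42% of all genes), with a median of -0.06. BRCA1-/-p53+/- had 1 higher and 6 lower (6.75% and 11.9% of all genes), with a median of -0.37. Against the normal glands, 8 were higher in the mean of the models, led by Pml (3.83), Trim30a (2.95) and Ifitm3 (1.87), and 6 lower, led by Cmpk2 (-2.86), Nampt (-2.60) and Ifi27l2a (-2.56). Both counts were near the 24.2% of all genes that were higher and the 17.1% that were lower.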

How the data were processed

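RNA of 41 mouse mammary tumors and 5 normal mammary glands was labelled with biotin and hybridised to Affymetrix mouse genome arrays. The deposited log2 values had been made by the authors with GC-RMA in Partek from GCOS output, after removal of probe sets that MAS5 called present or marginal in fewer than 3 samples. Tool versions and scan batches are not given in the sources used here. GC-RMA sets unexpressed probe sets to a narrow low band, so that levels near 2 have no order.

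The table held 18586 probe sets, of which 16962 had 1 gene, 569 several and 1055 none. Genes were kept with a log2 value over 4 in at least 3 arrays and the probe set with the highest mean was used (9329 genes). limma 3.58.1 in R 4.3.3 was fitted over the 9 groups and, for basal-type against luminal-type, over the 41 tumors, with Benjamini-Hochberg adjustment over all 9329 genes and a threshold of 0.05. The fit was tested on simulated data, drawn as independent normal values with the same spread in all groups for a gene. The simulation therefore could not check unequal spread between groups or levels at the low end of the table. Scaling, filter, probe set choice, variance prior, strain, blocks, the methods' t-test and each array left out were tried as alternatives. The fit without the p53-/- transplant tumors was added after seeing the data.

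The interferon-stimulated genes, the pathway lists and the marker lists were chosen with earlier results of these data known. Per-array values are given for the 2 genes of each role with the widest range of group means and for the Gbp and Ifi genes, and statistics for up to 4 called genes per direction with the largest difference, or up to 3 in the pathway lists. Further genes named with values were chosen after these were seen. Some items are not reported here. The number of arrays limits the precision.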

Additional observations from a re-analysis of the deposited data

Results flagged for a closer look

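In 144 groups of arrays, over the 15 interferon-stimulated genes given by array and the mean z score, 16 single values stood apart from the rest of their group. About 1 in 20 groups is marked in this way by chance, and the groups share arrays, so that 1 unusual tumor can be marked for several genes. The causes were not tested.

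MMTV-Her2/neu array 1 was the lowest of its 5 arrays for Iigp1 (11.1, next 12.02), Oasl2 (7.66, next 8.96), Dhx58 (3.15, next 5.92), Ifih1 (8.99, next 10.07) and Irf7 (7.32, next 8.65). p53-/- transplant array 7 was the lowest of its 7 for Ifit1 (8.13, next 9.75), Usp18 (8.25, next 10.73) and Dhx58 (4.27, next 6.99), and p53-/- transplant array 3 the highest for Psmb8 (12.82, next 11.44). Ifi44l was highest in MMTV-H-Ras array 1 (3.67, next 2.65) and lowest in MMTV-PymT array 2 (2.33, next 2.42), both within the low band of the FVB arrays. Dhx58 was highest of its group in BRCA1-/-p53+/- array 3 (4.94, next 3.28) and lowest in normal gland array 1 (2.02, next 2.38). Irf8 was lowest in MMTV-H-Ras array 1 (2.98, next 5.95) and in normal gland array 2 (2.93, next 4.13). Ifi35 was lowest in MMTV-Wnt1 array 1 (6.31, next 7.88).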

How the results depend on the processing

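The count of higher genes in the p53-/- transplant tumors stayed within 27 to 33 and that of lower genes at 0 with each array left out. Without the p53-/- transplant tumors, 19 genes differed between models, and 1 was higher and 1 lower in basal-type tumors. With FVB arrays alone, 3 were higher in basal-type tumors, and no difference could be resolved for Ifi44l (-0.20) or Gbp2b (-0.02), nor for Ifi44l in the models against normal glands (-0.08), where all levels lay near the low end of the table. With the model as a random block, 1 was higher in basal-type tumors. With arrays centred on their medians, which moved the median of all genes by up to 0.26, for example from 0.10 to -0.16 in C3(1)/Tag, lower counts were 4 in C3(1)/Tag, 0 in MMTV-H-Ras, 5 in MMTV-Her2/neu and 2 in MMTV-c-Myc, and the higher count was 1 in MMTV-Her2/neu. With the mean of all probe sets of a gene, higher counts were 0 in BRCA1-/-p53+/-, 0 in MMTV-c-Myc and 2 in MMTV-PymT, and the lower count was 4 in MMTV-H-Ras. Array numbers did not pair samples, since deviations correlated at 0.014 on average for the same number and -0.003 for different numbers. With the replicate block, higher counts were 29 in p53-/- transplant, 1 in MMTV-Her2/neu and 0 in MMTV-PymT tumors, and 11 genes were lower in MMTV-Wnt1.

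With each array left out, 32 to 35 genes differed between models, 7 to 12 were higher in basal-type tumors, and 10 to 15 were higher and 0 to 1 lower in the models than in normal glands. Higher and lower counts against the other models ran from 2 to 3 and 1 to 3 in C3(1)/Tag, 0 to 1 and 1 to 4 in BRCA1-/-p53+/-, 3 to 5 and 0 to 4 in MMTV-H-Ras, 1 to 3 and 1 to 3 in MMTV-Her2/neu, 0 to 1 and 0 to 10 in MMTV-c-Myc, 0 to 6 and 1 to 3 in MMTV-PymT, and 0 and 4 to 16 in MMTV-Wnt1. The causes of these changes were not tested. Levels near 2 are close to the low end of the table, where differences cannot be resolved.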
